A study of Mus musculus with 10 samples.

Results

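Cells in which Serpine2 had been lowered were set directly against cells in which Slpi had been lowered, both in clone 4T1-T. The comparison used 8 of the 10 RNA-seq libraries of the series, chosen by their titles and not by any measured value. These were 2 libraries each of shSerpine2-1 and shSerpine2-2, against 2 libraries each of shSlpi-1 and shSlpi-2, and each hairpin had the same weight. A further 2 libraries carried shRenilla, a hairpin against a luciferase that mouse cells lack. They entered no test here, and their levels are given as description.

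The line 4T1 comes from a mouse mammary carcinoma and metastasizes, and 4T1-T is a clone the labels describe as grown out from 1 cell. All 5 groups are infections of this clone with 1 short hairpin RNA each, grown in the same serum-containing medium, so each group is 1 infected line. The labels do not say whether libraries A and B of a line were separate cultures. The p-values therefore measure only the spread between libraries, which may be technical.

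Serpine2, also called protease nexin-1, is a secreted serpin that traps thrombin, urokinase and plasmin in covalent complexes. Slpi is a small secreted inhibitor of neutrophil elastase, cathepsin G and related serine proteases, from another protein family. Both have been studied in 4T1 cells for vascular mimicry, in which tumour cells line channels that carry blood. The direct comparison asks which transcripts distinguish lines with one hairpin target from lines with the other.

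Reads counted to genes, recovered from the deposited values, were 15877431 to 24026620 per library. The total number of sequenced reads is not known from them. Values below are normalized read counts, and a gene with no read could have up to 2.30 to 3.48 normalized reads, counting error only. The shSlpi-2 line stood apart from the others. The chi-square divided by degrees of freedom between its libraries was 9.66, against 1.51 to 2.64 within the other lines, and they had reads for 19938 and 20253 genes, against 15389 to 18366 in the other libraries compared. Ribosomal precursor RNA (Rn45s) took 6.88% and 6.91% of their reads counted to genes, against 0.881% to 1.96% in the other libraries compared. The summed level of 5 markers of epithelial tumour cells (Krt8, Krt18, Krt7, Epcam and Cdh1) was 24977 to 26436 with Serpine2 hairpins and 26597 to 30551 with Slpi hairpins, highest with shSlpi-2. Of markers of other cell types, 4 of 17 endothelial, 2 of 22 leukocyte and 4 of 16 fibroblast genes reached a mean of 10 normalized reads. Endothelial markers summed to 917 to 1016 with Serpine2 hairpins and 912 to 1034 with Slpi hairpins. Leukocyte markers summed to 270.3 to 308 with Serpine2 hairpins and 319 to 411 with Slpi hairpins. Fibroblast markers summed to 1674 to 1813 with Serpine2 hairpins and 1784 to 1939 with Slpi hairpins. None of these markers was at 0 in all 8 libraries. Most of each sum came from few genes: Flt1 (784 to 922) for endothelial, Cd14 and Cd68 for leukocyte, and Gsn and Pdgfra for fibroblast markers. Cd14 and Cd68 each overlapped between the arms, although the leukocyte sums did not. Cd14 had 122 to 140 with Serpine2 hairpins and 118 to 178 with Slpi hairpins, and Cd68 had 129 to 142 and 88.9 to 146. Every other leukocyte marker had at most 21.8 in any library. All libraries are from cultures of 1 clone, so these levels are not read as numbers of cells of other types. In bulk RNA, fewer cells with a transcript and less of it per cell cannot be told apart.

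Each targeted transcript was low in its own knockdown. The gene of Serpine2 spans chromosome 1 from 79794197 to 79861180 in GRCm38, on the minus strand, and its transcript had 128 and 139 with shSerpine2-1 and 489 and 514 with shSerpine2-2. With the Slpi hairpins it had 1342 and 1331 with shSlpi-1 and 1553 and 1731 with shSlpi-2. The Serpine2 libraries were all below the Slpi libraries, with a log2 difference of -2.51 (SE 0.06, limma adjusted p = 4.06e-12), a 5.7-fold lower level. The shRenilla libraries had 3256 and 3145, above both knockdowns, so Serpine2 was below the control with the Slpi hairpins too. Serpine2 was lower with shSerpine2-1 than with shSerpine2-2, with a log2 difference of -1.90 (limma adjusted p = 3.06e-08).

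The Slpi gene spans chromosome 2 from 164354070 to 164389095, also on the minus strand, and its transcript had 326 and 414 with shSerpine2-1 and 1111 and 1218 with shSerpine2-2. With its own hairpins it had 145 and 147 with shSlpi-1 and 60.9 and 75.8 with shSlpi-2. The Serpine2 libraries were all above the Slpi libraries, with a log2 difference of 2.70 (SE 0.09, limma adjusted p = 6.93e-10), a 6.51-fold higher level. In shRenilla it had 1189 and 1313, which is close to shSerpine2-2 and above shSerpine2-1. The level with shSerpine2-1 was below that with shSerpine2-2, with a log2 difference of -1.66 (limma adjusted p = 1.35e-05). The 2 lines of each arm thus differed in how low the target was and in how high the other inhibitor stayed.

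**Figure D1:**
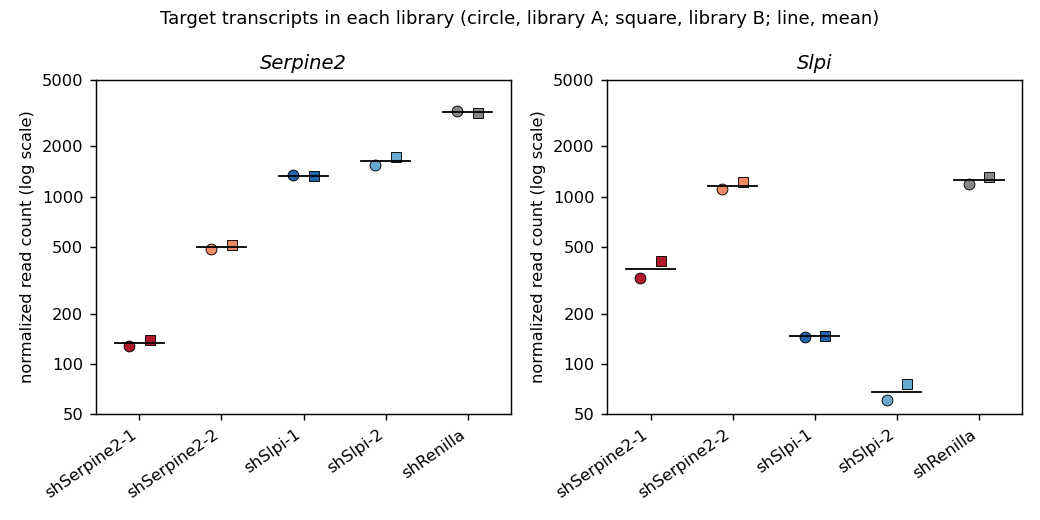
Normalized read count (log axis) of Serpine2 and Slpi in each library, by hairpin line, with circles for library A, squares for library B and a line at the mean. Serpine2 lies at 128 to 514 with its own hairpins and 1331 to 1731 with Slpi hairpins, and Slpi lies at 326 to 1218 with Serpine2 hairpins and 60.9 to 147 with its own.

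Of 12303 genes with a mean of at least 10 normalized reads, 1927 (15.7%) differed between Serpine2 and Slpi hairpins at a limma adjusted p under 0.05. With Serpine2 hairpins 1122 (9.12%) were higher and 805 (6.54%) were lower. Most differences were small: the median among these genes was 1.17-fold, and 11 were higher and 51 lower by at least 1 on the log2 scale. Some of the largest differences in both directions were of genes with a mean under 50. Genes with a read were fewest with shSerpine2-2, at 15389 and 15630, and most with shSlpi-2, at 19938 and 20253. The part of this order in the excess of large lower differences was not tested. The 4 Serpine2 libraries did not overlap the 4 Slpi libraries for 1089 genes (8.85%). Both criteria together held for 753 genes (6.12%), of which 523 were higher (4.25%) and 230 lower (1.87%). The split between directions depended on scaling, since 58.2% of the differing genes were higher with the authors' size factors and 44.3% when libraries were scaled to total reads without Rn45s.

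Single pairs of lines differed by very unequal numbers of genes, as the bar plot of hairpin pairs shows. The count was 184 (1.50%) for shSerpine2-1 against shSlpi-1, 3935 (32.0%) for shSerpine2-1 against shSlpi-2, 1322 (10.7%) for shSerpine2-2 against shSlpi-1 and 1890 (15.4%) for shSerpine2-2 against shSlpi-2. Lines with the same target differed from each other as well, with 1553 genes (12.6%) between shSerpine2-1 and shSerpine2-2 and 2943 (23.9%) between shSlpi-1 and shSlpi-2. These comparisons share libraries.

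**Figure D2:**
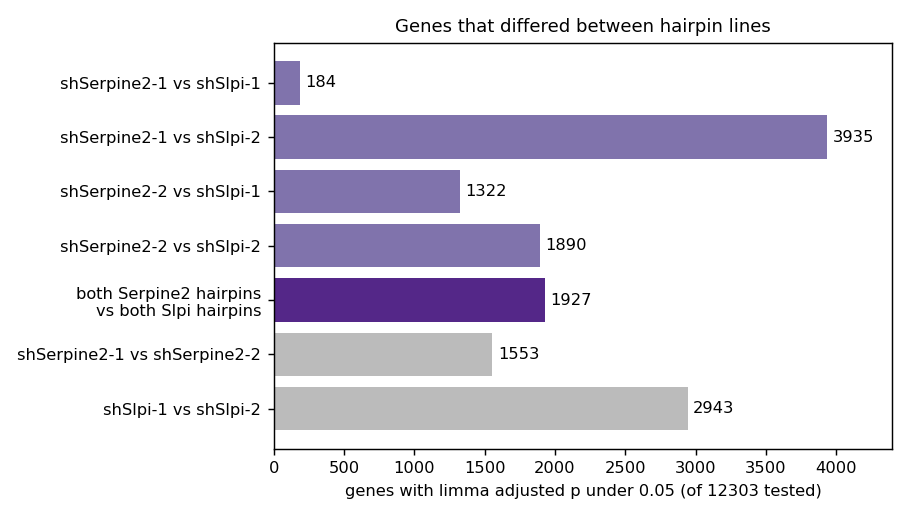
Number of genes with a limma adjusted p under 0.05, of 12303 tested, for each pair of a Serpine2 and a Slpi line (light purple), for both hairpins against both (dark purple) and for the 2 lines of one target (grey). The pair shSerpine2-1 against shSlpi-1 has 184 genes and the pair shSerpine2-1 against shSlpi-2 has 3935.

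The number of lines, 2 per target, limits every result below. With the lines as units, limma called 0 genes, with 419 (3.41%) at an unadjusted p under 0.05 and an adjusted p of 0.985 for both targets. With the line as a random effect, at a correlation of 0.53 between libraries of a line, Serpine2 and Slpi were the 2 genes called (0.0163%), each at an adjusted p of 0.0228. Each line was also left out in turn, and 189 genes (1.54%) kept their direction and their call with all lines and in all 4 of these fits, 122 higher (0.992%) and 67 lower (0.545%) with Serpine2 hairpins. All 189 were called with both other scalings too, and 186 also with each single library left out. These 189 are described below as holding without each line. A gene can hold in this way while shSerpine2-1 and shSlpi-1 overlap, as Ccl2 and Tslp did. These fits also measure only the spread between libraries of a line.

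The genes with the largest higher levels under Serpine2 hairpins, among those with a mean of at least 50 and no overlap of libraries, included secreted factors, a growth factor receptor and enzymes. Cck, a peptide hormone of gut and brain, had 91.3 and 89.4 with shSerpine2-1 and 418 and 493 with shSerpine2-2, against 60.5 and 77 with shSlpi-1 and 51.2 and 63.4 with shSlpi-2. Its log2 difference was 1.69 (SE 0.12, limma adjusted p = 2.08e-06), and it rested on shSerpine2-2, being 0.53 without that line (adjusted p = 0.062). Cyp1b1, a cytochrome P450 that oxidizes estrogens and xenobiotics, had 2119 and 2037 with shSerpine2-1 and 3309 and 3028 with shSerpine2-2, against 1788 and 1723 with shSlpi-1 and 976 and 1031 with shSlpi-2. It was 1.93-fold higher, a log2 difference of 0.95 (SE 0.04, limma adjusted p = 1.65e-08), and it was highest with shSerpine2-2 and lowest with shSlpi-2.

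Fgfr1, a receptor tyrosine kinase for fibroblast growth factors, had 184 and 182 with shSerpine2-1 and 321 and 295 with shSerpine2-2, against 128 and 153 with shSlpi-1 and 104 and 115 with shSlpi-2. It was 1.91-fold higher, a log2 difference of 0.93 (SE 0.09, limma adjusted p = 3.75e-05). The shRenilla libraries, at 327 and 355, lay above all 8. Gpnmb, a transmembrane glycoprotein of osteoblasts, macrophages and pigment cells, had 1172 and 1183 with shSerpine2-1 and 1797 and 1848 with shSerpine2-2, against 955 and 978 with shSlpi-1 and 767 and 686 with shSlpi-2. Its log2 difference was 0.81 (SE 0.05, limma adjusted p = 3.09e-07), again with the highest values in shSerpine2-2 and the lowest in shSlpi-2.

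Dio2, the deiodinase that activates thyroid hormone, had 218 and 211 with shSerpine2-1 and 339.8 and 343 with shSerpine2-2, against 196 and 161 with shSlpi-1 and 160.5 and 142 with shSlpi-2, a log2 difference of 0.72 (SE 0.09, limma adjusted p = 0.000165). Phex, an endopeptidase of bone and tooth cells, had 1209.6 and 1156 with shSerpine2-1 and 1089.6 and 1019 with shSerpine2-2, against 994 and 863 with shSlpi-1 and 481 and 579 with shSlpi-2, a log2 difference of 0.67 (SE 0.06, limma adjusted p = 3.75e-05). Gsta4, a glutathione transferase for lipid peroxidation products, had 1185 and 1181 with shSerpine2-1 and 1342 and 1249.7 with shSerpine2-2, against 923 and 980.1 with shSlpi-1 and 644 and 597 with shSlpi-2, a log2 difference of 0.69 (SE 0.05, limma adjusted p = 2.08e-06). For these 3 genes the Serpine2 libraries did not overlap the Slpi libraries, and the lowest values were those of shSlpi-2. Hlf, a circadian transcription factor of the PAR family, differed by 0.72 (SE 0.15, limma adjusted p = 0.00569). Cyp1b1, Fgfr1, Gpnmb, Dio2, Phex, Gsta4 and Hlf all held without each line.

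The other 4 of these 12 genes were not called without 1 of the lines. Prl2c2 (proliferin, a prolactin family hormone) differed by 0.90 (limma adjusted p = 0.000202), and by 0.42 without shSerpine2-2 (adjusted p = 0.0786). Its near-identical gene copies make its count uncertain. Apcdd1, a membrane inhibitor of Wnt signalling, differed by 0.70 (limma adjusted p = 0.00078), and by 0.45 without shSerpine2-2 (adjusted p = 0.0509). Angpt1, a ligand of the endothelial receptor Tie2, differed by 0.73 (limma adjusted p = 0.000552), and by 0.29 without shSlpi-2 (adjusted p = 0.072). Nov, a matricellular protein of the CCN family, differed by 0.75 (limma adjusted p = 0.0103), and by 0.63 without shSerpine2-2 (adjusted p = 0.0709). Leaving out library A of shSerpine2-1 or of shSerpine2-2 alone gave Nov an adjusted p of 0.0569 or 0.0728.

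Among the 12 named genes with the largest lower levels under the same limits of mean and overlap, other than Serpine2 itself, were an rRNA precursor, a mitochondrial enzyme, a keratin, an integrin chain, a mucin and a collagen. Lars2, the mitochondrial leucyl-tRNA synthetase, had 5649 and 5667 with shSerpine2-1 and 11719 and 11192 with shSerpine2-2, against 15038 and 14189 with shSlpi-1 and 73541 and 86522 with shSlpi-2. Its log2 difference was -2.08 (SE 0.05, limma adjusted p = 4.06e-12), and shSlpi-2 stood far above all other libraries. Rn45s had 170752 and 162316 with shSerpine2-1 and 338797 and 297466 with shSerpine2-2, against 354320.0 and 341592 with shSlpi-1 and 1342780.0 and 1328150.0 with shSlpi-2, a log2 difference of -1.57 (SE 0.05, limma adjusted p = 1.96e-10). The order of the 4 lines was the same for both, with shSerpine2-1 lowest, then shSerpine2-2, shSlpi-1 and shSlpi-2. Rn45s is a repeated gene, so its count is uncertain. Lars2 stands with Rn45s in the list of RNA processing and library quality signs, and its difference is not read here as a change of the enzyme. Whether library preparation had a part in these 2 differences was not tested.

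Krt14, the keratin of basal epithelial cells, had 216 and 219 with shSerpine2-1 and 244 and 266 with shSerpine2-2, against 347 and 284 with shSlpi-1 and 544 and 471 with shSlpi-2. It was 1.69-fold lower, a log2 difference of -0.76 (SE 0.08, limma adjusted p = 7.44e-05). The shRenilla libraries had 115 and 120.1, below all 8, so the control was nearer to Serpine2 knockdown. Itgb6, the epithelial integrin chain that activates latent TGF-beta, had 195 and 196 with shSerpine2-1 and 174 and 169 with shSerpine2-2, against 238 and 251 with shSlpi-1 and 372 and 364 with shSlpi-2. It was 1.63-fold lower, a log2 difference of -0.71 (SE 0.07, limma adjusted p = 4.51e-05), and shRenilla was again below all 8, at 133 and 138.

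Muc6, a gel-forming mucin of the stomach, had 143 and 182 with shSerpine2-1 and 69.4 and 70.5 with shSerpine2-2, against 193 and 183 with shSlpi-1 and 235 and 276 with shSlpi-2, a log2 difference of -1.04 (SE 0.10, limma adjusted p = 4.14e-05). The shSerpine2-2 libraries were the lowest. Col14a1, a collagen that associates with fibrils, had 66.8 and 54.6 with shSerpine2-1 and 36 and 34.5 with shSerpine2-2, against 73.6 and 88.4 with shSlpi-1 and 92.8 and 98.5 with shSlpi-2, a log2 difference of -0.91 (SE 0.13, limma adjusted p = 0.000747). Lars2, Rn45s, Krt14, Itgb6, Muc6 and Col14a1 held without each line.

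The remaining 6 lower genes did not. Psmb9, a subunit of the immunoproteasome, had 39 and 45.3 with shSerpine2-1 and 54.4 and 59 with shSerpine2-2, against 94.8 and 74.9 with shSlpi-1 and 80.2 and 93.7 with shSlpi-2. Its log2 difference was -0.80 (SE 0.14, limma adjusted p = 0.00217), and it was -0.58 without shSerpine2-1 (adjusted p = 0.0548). Dnah11, an axonemal dynein heavy chain, differed by -0.87 (limma adjusted p = 0.00284), and by -0.31 without shSerpine2-2. Slco5a1, a solute carrier of the organic anion transporter family, differed by -0.84 (limma adjusted p = 0.000428), and by -0.30 without shSlpi-2. None of these 3 was called once that line was left out.

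Acpp, the prostatic acid phosphatase, differed by -0.68 (limma adjusted p = 0.00737), and by -0.42 without shSerpine2-2 (adjusted p = 0.141). Ppm1j, a phosphatase of the PP2C family, differed by -0.69 (limma adjusted p = 0.00409), and by -0.49 without shSlpi-2 (adjusted p = 0.052). S100a13, a calcium-binding protein involved in release of FGF1, differed by -0.67 (limma adjusted p = 0.0131), and by -0.57 without shSerpine2-2 (adjusted p = 0.0588). Leaving out library A of shSerpine2-1, shSerpine2-2 or shSlpi-1 gave it an adjusted p of 0.0764, 0.081 or 0.0566. The plot of named genes by hairpin pair shows how far the single pairs spread around each of these values.

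**Figure D3:**
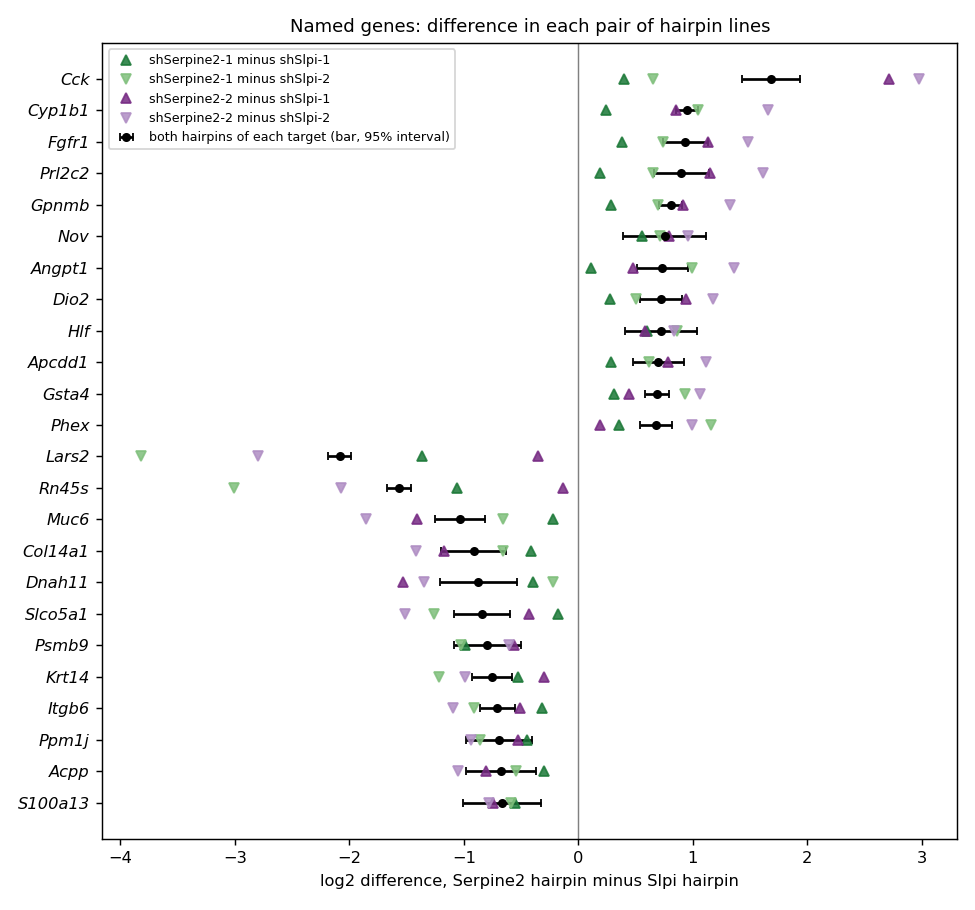
Log2 difference, Serpine2 hairpin minus Slpi hairpin, of the 12 genes with the largest higher and the 12 with the largest lower level under Serpine2 hairpins, other than the targets, among named genes with a mean of at least 50 and no overlap of libraries, with triangles for the 4 pairs of lines and a black point with its 95% interval for both hairpins of each target. The 4 pairs of every gene lie on one side of 0, which the choice of the genes fixes, while the pairs differ in size, as for Cck between shSerpine2-1 and shSerpine2-2.

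Genes of 36 lists were then counted against all genes tested, of which 9.12% were higher and 6.54% lower, with a median log2 difference of 0.00. The bar plot of gene lists gives these shares for the larger lists. Calls over all 12303 genes also moved with the fit, and list counts below are to be set beside them. They were 448 higher and 335 lower without shSerpine2-1, and 934 and 830 without shSerpine2-2. Without shSlpi-1 they were 1684 and 1474, and without shSlpi-2 1288 and 805. Quantile normalization gave 779 and 772, and scaling to total reads 772 and 970.

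**Figure D4:**
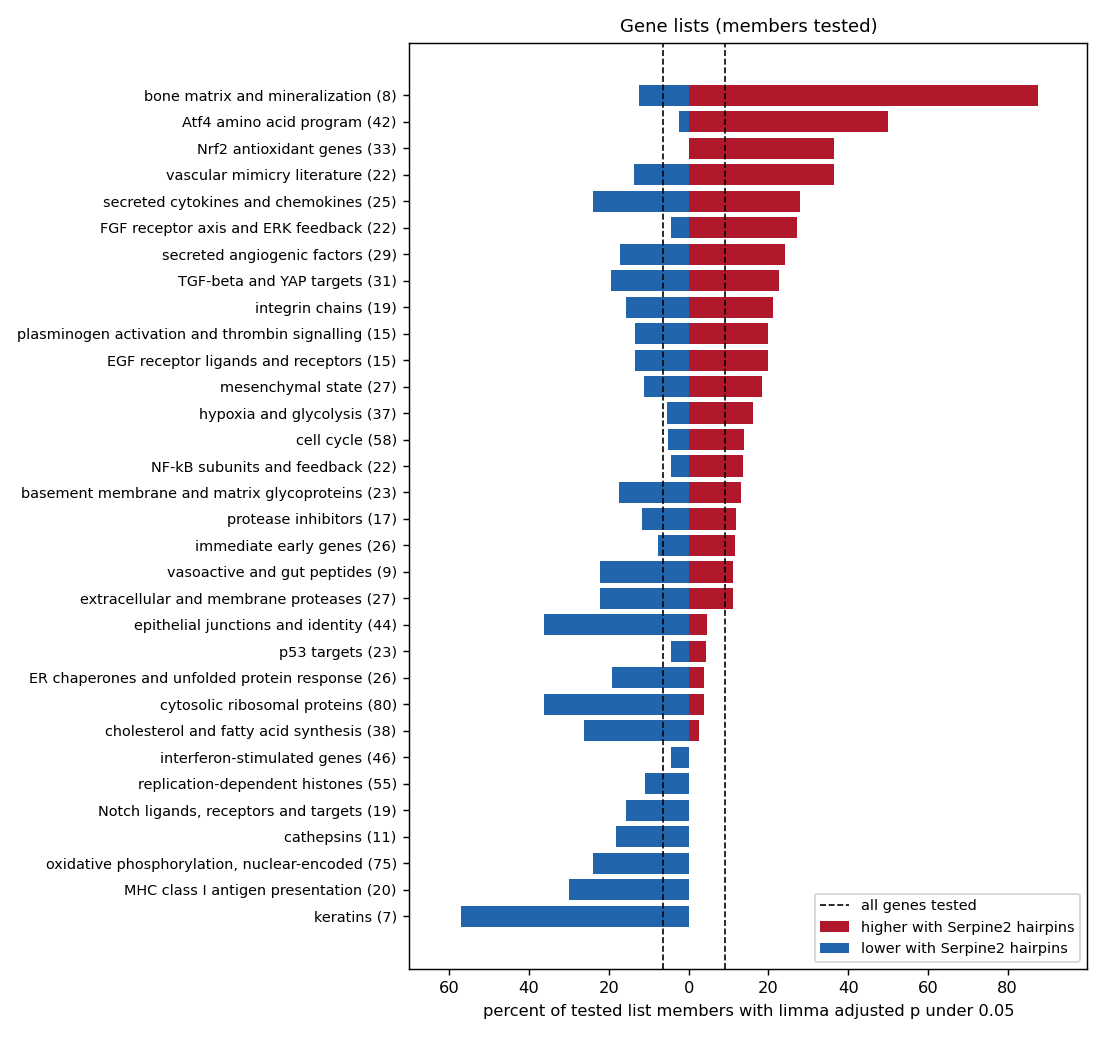
Percent of the tested members of each list with a limma adjusted p under 0.05 that were higher (red, to the right) or lower (blue, to the left) with Serpine2 hairpins, with the number tested in parentheses and dashed lines for all genes tested. Of the bone matrix list 7 of 8 members were higher, of the Atf4 list 21 of 42, and of the epithelial list 16 of 44 were lower.

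Of 17 other protease inhibitors tested, 2 were higher and 2 lower, with a median of -0.10. Serpinb9, an intracellular inhibitor of granzyme B, had 238 and 235 with shSerpine2-1 and 177 and 206 with shSerpine2-2, against 168 and 159 with shSlpi-1 and 122 and 132 with shSlpi-2, a log2 difference of 0.56 (SE 0.09, limma adjusted p = 0.00111). Its libraries did not overlap, but its adjusted p was 0.0589 without shSerpine2-1. Serpinb5 (maspin) differed by -0.34 (limma adjusted p = 0.00997), Wfdc2, a member of the same domain family as Slpi, by -0.37 (limma adjusted p = 0.0188), and Serpinb2, an inhibitor of urokinase, by 1.01 (limma adjusted p = 0.0461) at a low level. None of these 4 held without each line, and the last 3 were also lost without single libraries.

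The proteases and receptors that these inhibitors act on differed in single members. Of 15 genes of plasminogen activation and thrombin signalling, 3 were higher and 2 lower, with a median of -0.02. Plaur, the urokinase receptor, had 1027 and 1034 with shSerpine2-1 and 997 and 1076 with shSerpine2-2, against 1305 and 1215 with shSlpi-1 and 1273 and 1632 with shSlpi-2, a log2 difference of -0.38 (SE 0.07, limma adjusted p = 0.00244). F2r, the thrombin receptor PAR1, had 6655 and 6469 with shSerpine2-1 and 7097 and 6727 with shSerpine2-2, against 5957 and 6100.4 with shSlpi-1 and 5692 and 5627 with shSlpi-2, a log2 difference of 0.21 (SE 0.03, limma adjusted p = 0.00161). For both the libraries did not overlap, and both calls held without each line. F3 (tissue factor) differed by 0.35 (limma adjusted p = 0.0172) and did not hold without each line. Procr, the endothelial protein C receptor, differed by -0.26 (limma adjusted p = 0.000972), but by 0.01 without shSlpi-2. Plgrkt, a plasminogen receptor, differed by 0.45 (limma adjusted p = 0.0104), and by -0.12 without shSlpi-2, the opposite sign.

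Of 27 extracellular and membrane proteases, 3 were higher and 6 lower, with a median of 0.00, but 5 were higher and 4 lower without shSerpine2-1 and 6 and 3 without shSlpi-2. Adam12, a disintegrin metalloproteinase, had 1970.4 and 1870.3 with shSerpine2-1 and 1810.5 and 1849 with shSerpine2-2, against 2128 and 2054 with shSlpi-1 and 3277 and 3489 with shSlpi-2, a log2 difference of -0.50 (SE 0.04, limma adjusted p = 5.72e-06). St14 (matriptase), a membrane serine protease of epithelia, had 698 and 691 with shSerpine2-1 and 698 and 735 with shSerpine2-2, against 817 and 779 with shSlpi-1 and 1133 and 1024 with shSlpi-2, a log2 difference of -0.39 (SE 0.05, limma adjusted p = 0.000298). Adamts1, a metalloproteinase that cleaves proteoglycans, had 2145 and 2127 with shSerpine2-1 and 1777 and 1891 with shSerpine2-2, against 2494 and 2808 with shSlpi-1 and 2444 and 2344 with shSlpi-2, a log2 difference of -0.35 (SE 0.04, limma adjusted p = 0.000298). The lower level of these 3 held without each line, with no overlap of libraries. Mmp3 (stromelysin 1) had 381 and 373 with shSerpine2-1 and 785 and 747 with shSerpine2-2, against 357 and 393 with shSlpi-1 and 319.9 and 313 with shSlpi-2. Its log2 difference of 0.64 (SE 0.06, limma adjusted p = 2.94e-05) rested on shSerpine2-2 and was 0.13 without that line. Of 11 cathepsins, 0 were higher and 2 lower, Ctsw and Ctsz, and neither held without each line. The direction of the cathepsin list turned without shSlpi-2, with 4 higher and 0 lower.

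Genes of epithelial junctions and identity were lower with Serpine2 hairpins in 16 of 44 tested and higher in 2, with a median of -0.18. The counts were 15 lower and 2 higher with quantile normalization, and 18 and 2 with scaling to total reads. Epcam, an epithelial adhesion molecule, had 1498 and 1469.8 with shSerpine2-1 and 1688 and 1751 with shSerpine2-2, against 1858 and 1844 with shSlpi-1 and 2159 and 2043 with shSlpi-2, a log2 difference of -0.30 (SE 0.04, limma adjusted p = 0.000295). Epcam, St14, Itgb6 and Cgn (cingulin, of tight junctions, -0.28 (limma adjusted p = 0.00366)) held without each line. Without shSlpi-2 the list had 7 lower and 3 higher. Cldn4, a tight junction claudin, had 169 and 182 with shSerpine2-1 and 161 and 152 with shSerpine2-2, against 197 and 172 with shSlpi-1 and 372 and 399.6 with shSlpi-2, and its difference of -0.68 was -0.15 without shSlpi-2. The medians of the list were -0.11 and -0.28 for shSerpine2-1 against shSlpi-1 and shSlpi-2, and -0.12 and -0.24 for shSerpine2-2 against the same lines.

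Keratins showed the same direction, with 4 of 7 tested lower, 0 higher and a median of -0.22. Besides Krt14, these were Krt19, Krt7 and Krt18, at -0.35, -0.21 and -0.22. Without shSlpi-2 these 3 were at -0.09, -0.07 and -0.06, and none was called. The epithelial marker sum was highest with shSlpi-2, as given above, and its part in these counts was not tested.

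Mesenchymal genes did not go one way. Of 27 tested, 5 were higher and 3 lower, with a median of 0.00, and without shSerpine2-1 3 were higher and 4 lower. Postn (periostin), a matrix protein of fibroblasts, had 11.1 and 18.6 with shSerpine2-1 and 13.2 and 23 with shSerpine2-2, against 42.3 and 23.9 with shSlpi-1 and 72.5 and 53 with shSlpi-2. It was 2.7-fold lower, a log2 difference of -1.43 (SE 0.26, limma adjusted p = 0.0029), and it held without each line. Vim and Zeb2, a filament protein and a repressor of epithelial genes, differed by 0.16 (limma adjusted p = 0.00934) and 0.16 (limma adjusted p = 0.0142), and neither held without each line. Of 23 basement membrane and matrix glycoprotein genes, 3 were higher and 4 lower, and none held without each line. Without shSlpi-2 8 of these were higher and 0 lower, and without shSerpine2-1 0 and 1. Lamb3, a laminin chain, differed by -0.24, and by 0.17 without shSlpi-2. Of 19 integrin chains, 4 were higher and 3 lower, and Itgb6 was the one that held without each line. Without shSerpine2-2 the integrin list had 0 higher and 2 lower. Of the 4 fibroblast markers tested, Pdgfra was higher, at 0.33 (limma adjusted p = 0.00962), and Postn and Gsn were lower, at -1.43 and -0.27 (limma adjusted p = 0.00136). Pdgfra was at 0.19 without shSerpine2-2 (adjusted p = 0.226) and was not called without some single libraries. The endothelial and leukocyte lists had 0 genes called of 4 and of 2.

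Genes of bone matrix and mineralization were higher in 7 of 8 tested, of 19 in the list, and lower in 1, with a median of 0.59. Without a filter on low counts all 19 gave 5 higher, 1 lower and a median of -0.45, the opposite sign. Spp1 (osteopontin), a secreted phosphoprotein that binds integrins, had 11751 and 11583 with shSerpine2-1 and 15464 and 15891 with shSerpine2-2, against 11468 and 11261 with shSlpi-1 and 7154 and 7443 with shSlpi-2. Its log2 difference was 0.57 (SE 0.03, limma adjusted p = 2.07e-07), and the shRenilla libraries, at 23343 and 25626, were above all 8. Ank, a transporter that controls extracellular pyrophosphate, had 7549 and 7579 with shSerpine2-1 and 8813 and 9159 with shSerpine2-2, against 7102 and 6741 with shSlpi-1 and 6097 and 6432 with shSlpi-2, a log2 difference of 0.32 (SE 0.03, limma adjusted p = 7.37e-05). Spp1, Phex and Ank held without each line. Alpl, the phosphatase that degrades pyrophosphate, differed by 0.60 (limma adjusted p = 0.00144), and by 0.26 without shSlpi-2.

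The rest of the bone list were named after their values were seen. Mgp, an inhibitor of calcification, differed by 0.90 (limma adjusted p = 0.0103), Dmp1, a dentin matrix protein, by 0.67 (limma adjusted p = 0.0114), and Runx2, the osteoblast transcription factor, by 0.19 (limma adjusted p = 0.0219). Enpp1, which makes pyrophosphate, was the lower gene, at -0.45 (limma adjusted p = 0.00324). None of these 4 held without each line. The list median was 0.08 for shSerpine2-1 against shSlpi-1 and 1.05 for shSerpine2-2 against shSlpi-2. Without shSlpi-2 4 members were higher and 0 lower, and without shSerpine2-2 3 and 0.

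Genes of the FGF receptor axis and of ERK feedback were higher in 6 of 22 tested and lower in 1, with a median of 0.14. Besides Fgfr1, the feedback inhibitor Spred1 had 2806 and 2767 with shSerpine2-1 and 2631 and 2738 with shSerpine2-2, against 2449.7 and 2372 with shSlpi-1 and 2105 and 2105 with shSlpi-2, a log2 difference of 0.28 (SE 0.04, limma adjusted p = 0.000295). Spry4, a Sprouty inhibitor of receptor signalling, had 409 and 463 with shSerpine2-1 and 449.6 and 478 with shSerpine2-2, against 351 and 365 with shSlpi-1 and 345 and 329 with shSlpi-2, a log2 difference of 0.37 (SE 0.06, limma adjusted p = 0.00243). Fgfbp1, a secreted carrier that releases FGF from matrix, went the other way, with 2398 and 2428 with shSerpine2-1 and 2080.1 and 2173 with shSerpine2-2, against 2843 and 2806 with shSlpi-1 and 2732 and 2929.7 with shSlpi-2, a log2 difference of -0.32 (SE 0.04, limma adjusted p = 0.000165). The shRenilla libraries had 1425 and 1436 for Fgfbp1, below all 8. Fgfr1, Spred1, Spry4 and Fgfbp1 held without each line, and for each the libraries did not overlap.

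Of 15 EGF receptor ligands and receptors, 3 were higher and 2 lower, with a median of 0.10. Tgfa, an EGF receptor ligand, had 2376 and 2397 with shSerpine2-1 and 3020.4 and 3013 with shSerpine2-2, against 2272 and 2359.8 with shSlpi-1 and 1558 and 1572 with shSlpi-2, a log2 difference of 0.50 (SE 0.04, limma adjusted p = 2.69e-06). Btc (betacellulin), another ligand, had 116 and 123 with shSerpine2-1 and 140.5 and 155 with shSerpine2-2, against 95.8 and 105 with shSlpi-1 and 74.4 and 70.1 with shSlpi-2, a log2 difference of 0.64 (SE 0.10, limma adjusted p = 0.00145). Both held without each line, and in both shSlpi-2 was lowest. Erbb3, a receptor partner of Erbb2, differed by -0.67 (limma adjusted p = 0.00969), and its call was lost without shSerpine2-2 or shSlpi-2.

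Immediate early genes were higher in 3 of 26 tested and lower in 2, near the share of all genes. Klf4, a zinc finger transcription factor, had 212 and 235 with shSerpine2-1 and 307 and 265 with shSerpine2-2, against 170.4 and 181 with shSlpi-1 and 167 and 154 with shSlpi-2, a log2 difference of 0.58 (SE 0.08, limma adjusted p = 0.000716), and held without each line. Egr1 had 861 and 807 with shSerpine2-1 and 529 and 482 with shSerpine2-2, against 686 and 562 with shSlpi-1 and 252 and 281 with shSlpi-2. Its groups overlapped, and its difference of 0.67 was 0.06 without shSlpi-2. Of 31 TGF-beta and YAP target genes, 7 were higher and 6 lower, and with quantile normalization 2 and 6. Ctgf and Cyr61, matricellular YAP targets, had 1048 to 1253 and 5049 to 5856 with Serpine2 hairpins, against 1258 to 1708 and 5774 to 7219 with Slpi hairpins. Their log2 differences were -0.34 (SE 0.04, limma adjusted p = 0.000328) for the first and -0.27 (adjusted p = 0.000257) for the second, and both held without each line.

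Secreted cytokines and chemokines were higher in 7 of 25 tested and lower in 6, with a median of 0.03, and without shSerpine2-2 in 4 and 7, with a median of -0.20. Ccl2, a chemokine that draws monocytes, had 365 and 333 with shSerpine2-1 and 862 and 917 with shSerpine2-2, against 379 and 336 with shSlpi-1 and 146 and 221 with shSlpi-2. Its log2 difference was 1.13 (SE 0.10, limma adjusted p = 2.94e-05), with shSerpine2-1 and shSlpi-1 overlapping, shSerpine2-2 above them and shSlpi-2 below. Tslp, an epithelial cytokine of allergic responses, had 618 and 609.5 with shSerpine2-1 and 1039 and 1011 with shSerpine2-2, against 647 and 583 with shSlpi-1 and 252 and 334 with shSlpi-2, a log2 difference of 0.91 (SE 0.08, limma adjusted p = 1.18e-05). It had the same order of lines, and shRenilla, at 1532 and 1582, was above all 8. Csf1, the growth factor of macrophages, had 6747 and 6396 with shSerpine2-1 and 7126 and 7092 with shSerpine2-2, against 6218 and 6019 with shSlpi-1 and 4429 and 4824 with shSlpi-2, a log2 difference of 0.36 (SE 0.04, limma adjusted p = 5.91e-05). Ccl2, Tslp, Csf1 and Spp1 held without each line. Cxcl5, a chemokine for neutrophils, differed by 0.75 (limma adjusted p = 4.14e-05), and by 0.24 without shSerpine2-2.

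Of 29 secreted angiogenic factors, 7 were higher and 5 lower, with a median of 0.09, and Tgfa and Csf1 held without each line. Without shSerpine2-2 3 of these were higher and 6 lower. Vegfa, the main endothelial growth factor, differed by 0.23 (limma adjusted p = 0.00715), but by -0.03 without shSlpi-2. Of 22 genes tied to vascular mimicry in the literature, 8 were higher and 3 lower, with a median of -0.01, and without shSerpine2-2 3 and 4. Pik3ca, a catalytic subunit of PI3-kinase, had 3124 and 3205 with shSerpine2-1 and 3072 and 2861 with shSerpine2-2, against 2709.8 and 2716 with shSlpi-1 and 2342 and 2310.4 with shSlpi-2, a log2 difference of 0.29 (SE 0.04, limma adjusted p = 0.0003). Hif1a, the oxygen-regulated transcription factor, had 7834 and 7961 with shSerpine2-1 and 7912 and 7682 with shSerpine2-2, against 6934 and 7104 with shSlpi-1 and 6655 and 6013 with shSlpi-2, a log2 difference of 0.24 (SE 0.04, limma adjusted p = 0.00138). Pik3ca, Hif1a and F2r held without each line. Notch4, a Notch receptor, was lower by a log2 difference of -1.08 at a low level, 6.97 to 9.66 with Serpine2 hairpins and 13.3 to 34.8 with Slpi hairpins. Of 9 vasoactive and gut peptides, Cck was higher, and Ucn2 (urocortin 2, -0.54 (limma adjusted p = 0.00203)) and Edn1 (endothelin 1, -0.62 (limma adjusted p = 0.00952)) were lower. Edn1 was at -0.50 without shSerpine2-2 (adjusted p = 0.0769).

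Of 22 NF-kB subunit and feedback genes, 3 were higher and 1 lower, and of 46 interferon-stimulated genes, 0 were higher and 2 lower. Of 20 genes of MHC class I antigen presentation, 0 were higher and 6 lower, with a median of -0.06, and without shSerpine2-1 0 and 1. Tapbp (tapasin), which loads peptides on MHC class I, had 761 and 813 with shSerpine2-1 and 1011 and 1115 with shSerpine2-2, against 1081 and 1047 with shSlpi-1 and 1477 and 1662 with shSlpi-2, a log2 difference of -0.50 (SE 0.05, limma adjusted p = 7.17e-05), and held without each line. H2-K1 and H2-D1, the class I heavy chains, differed by -0.22 and -0.17, and by -0.07 and -0.01 without shSerpine2-1. Of 19 Notch ligands, receptors and targets, 0 were higher and 3 lower, and none held without each line. Without shSerpine2-1, and also without shSlpi-2, 2 of these were higher and 0 lower.

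Genes of the Atf4 amino acid program were higher with Serpine2 hairpins in 21 of 42 tested and lower in 1 (Ddit4), with a median of 0.14. Atf4 is the transcription factor of the integrated stress response, and the list holds amino acid transporters, synthesis enzymes and tRNA synthetases that it controls. With each of quantile normalization and scaling to total reads, 15 were higher and 1 lower. Slc7a11, the cystine transporter, had 854 and 921 with shSerpine2-1 and 1165 and 1087 with shSerpine2-2, against 672 and 687 with shSlpi-1 and 643 and 628 with shSlpi-2. It was 1.52-fold higher, a log2 difference of 0.60 (SE 0.05, limma adjusted p = 8.10e-06), and shRenilla, at 577 and 596, was below all 8.

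Psat1, an enzyme of serine synthesis, had 11274 and 11809 with shSerpine2-1 and 11947 and 12451 with shSerpine2-2, against 9333 and 9503 with shSlpi-1 and 9261 and 9855 with shSlpi-2, a log2 difference of 0.32 (SE 0.03, limma adjusted p = 7.89e-05). Chac1, which degrades glutathione, had 437 and 447 with shSerpine2-1 and 584 and 606 with shSerpine2-2, against 368 and 332 with shSlpi-1 and 357 and 383 with shSlpi-2, a log2 difference of 0.51 (SE 0.06, limma adjusted p = 0.000167). Iars and Gars, cytosolic tRNA synthetases, differed by 0.25 (limma adjusted p = 0.000298) and 0.23 (limma adjusted p = 0.00217). These 5 genes held without each line, and their libraries did not overlap. Asns, the asparagine synthetase, and Phgdh, the first enzyme of serine synthesis, differed by 0.23 (limma adjusted p = 0.00244) and 0.23 (limma adjusted p = 0.0212), and neither held without each line. The counts moved with the line left out, from 7 higher and 2 lower without shSerpine2-2 to 29 higher and 0 lower without shSlpi-2. The list median was 0.11, 0.01, 0.26 and 0.18 for shSerpine2-1 against shSlpi-1, shSerpine2-1 against shSlpi-2, shSerpine2-2 against shSlpi-1 and shSerpine2-2 against shSlpi-2.

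Antioxidant genes controlled by Nrf2 were higher in 12 of 33 tested and lower in 0, with a median of 0.07. The counts were 9 higher and 1 lower with quantile normalization, and 10 and 1 with scaling to total reads. For shSerpine2-1 the list median was -0.02 against shSlpi-1 and 0.06 against shSlpi-2. For shSerpine2-2 it was 0.10 against shSlpi-1 and 0.17 against shSlpi-2. Gclm, the regulatory subunit of the enzyme that starts glutathione synthesis, had 1948 and 2027 with shSerpine2-1 and 1889 and 1848 with shSerpine2-2, against 1742 and 1777 with shSlpi-1 and 1300.0 and 1345 with shSlpi-2, a log2 difference of 0.34 (SE 0.04, limma adjusted p = 0.000125). Hmox1, heme oxygenase 1, had 493 and 478 with shSerpine2-1 and 634 and 623 with shSerpine2-2, against 419 and 454 with shSlpi-1 and 347 and 382 with shSlpi-2, a log2 difference of 0.47 (SE 0.06, limma adjusted p = 0.000257). Nfe2l2, the gene of Nrf2 itself, had 4651 and 4628 with shSerpine2-1 and 5003 and 5039.6 with shSerpine2-2, against 4042 and 3918 with shSlpi-1 and 3465 and 3936 with shSlpi-2, a log2 difference of 0.33 (SE 0.04, limma adjusted p = 0.000223). Gsta4, Slc7a11, Gclm, Hmox1 and Nfe2l2 held without each line, with no overlap of libraries. Slc7a11 is in both the Atf4 and the Nrf2 list.

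The promoters of 3 of these genes are shown because they carry the core motif of the factor each list is named for. Each run gives the 250 bases before the gene's start, 5′ to 3′ on the gene's strand, from RefSeq (GRCm38.p6), at chr3:50443614-50443863 (minus strand) for Slc7a11, chr2:119350992-119351241 (plus strand) for Chac1 and chr3:122245307-122245556 (plus strand) for Gclm. Capitals mark the core of the element bound by Atf4 with C/EBP (TGATGCAA) in the first pair of genes and the core of the antioxidant response element (TGACNNNGC) in Gclm, on either strand.
Slc7a11: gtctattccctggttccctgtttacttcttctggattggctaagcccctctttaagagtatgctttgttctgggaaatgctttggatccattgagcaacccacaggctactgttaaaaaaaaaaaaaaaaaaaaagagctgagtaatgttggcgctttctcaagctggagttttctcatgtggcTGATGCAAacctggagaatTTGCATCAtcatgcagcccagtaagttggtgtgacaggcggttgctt
Chac1: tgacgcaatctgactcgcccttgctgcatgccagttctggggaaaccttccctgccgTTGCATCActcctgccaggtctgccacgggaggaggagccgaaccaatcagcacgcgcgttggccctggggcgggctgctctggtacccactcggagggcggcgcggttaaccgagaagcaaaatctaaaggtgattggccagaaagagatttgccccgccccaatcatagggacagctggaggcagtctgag
Gclm: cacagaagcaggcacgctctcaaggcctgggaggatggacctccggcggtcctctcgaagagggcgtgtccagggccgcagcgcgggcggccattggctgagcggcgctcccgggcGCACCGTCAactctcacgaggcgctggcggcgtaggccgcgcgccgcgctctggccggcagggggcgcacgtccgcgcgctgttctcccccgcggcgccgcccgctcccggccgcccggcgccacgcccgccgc
The Atf4 core occurs in Slc7a11 on both strands, with first bases 66 and 47 before the start, and in Chac1 at 193 before the start. The antioxidant core of Gclm begins 134 bases before the start. Both strands were searched in all genes with a RefSeq entry, and 0.918% of 27025 such windows held the Atf4 core and 11.5% the antioxidant core. Of the 19 higher Atf4 genes with an entry, 5 held the Atf4 core (Aars, Chac1, Got1, Slc7a11 and Tars), and of the 14 not called, 1 did (Pycr1). Of the 8 higher Nrf2 genes with an entry, 4 held the antioxidant core (G6pdx, Gclm, Nfe2l2 and Txnrd1), and of the 19 not called, 1 did (Prdx1). The antioxidant core was also in 5 of the 19 higher Atf4 genes and in 3 of the 14 not called. The Atf4 core was in 1 of the 8 higher Nrf2 genes (Slc7a11) and in 0 of the 19 not called. These matches describe letters in a window and do not show binding.

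**Figure D5:**
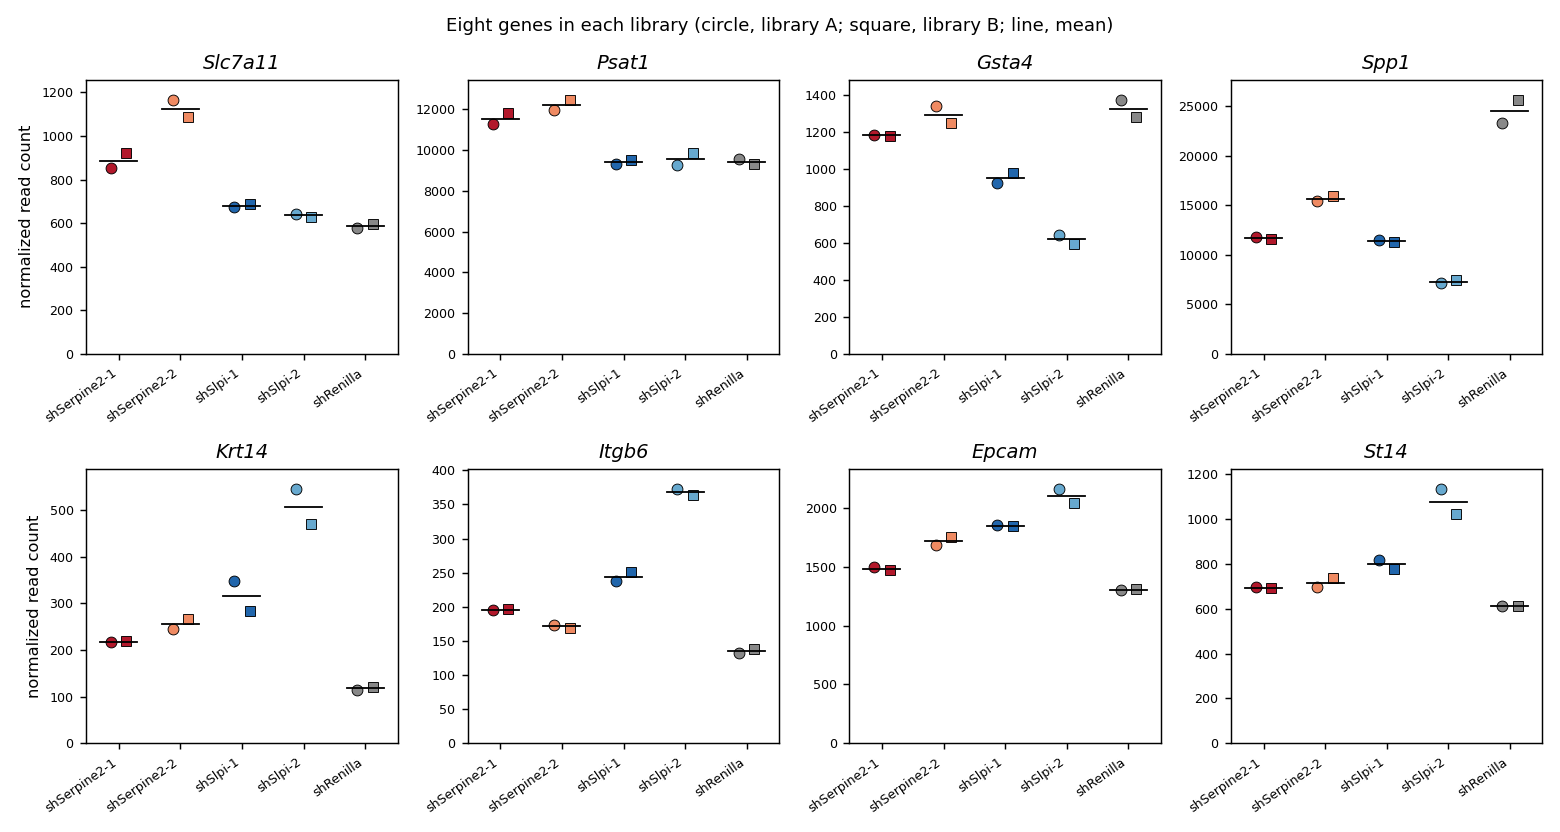
Normalized read count in each library, by hairpin line, of 4 genes that were higher with Serpine2 hairpins (Slc7a11, Psat1, Gsta4 and Spp1, top) and 4 that were lower (Krt14, Itgb6, Epcam and St14, bottom), with circles for library A, squares for library B and a line at the mean. The shRenilla libraries lie below all 8 compared libraries for Slc7a11, Krt14, Itgb6, Epcam and St14 and above them for Spp1.

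Genes of cholesterol and fatty acid synthesis were lower in 10 of 38 tested and higher in 1 (Me1), with a median of -0.07. Scd2, a fatty acid desaturase, had 36986 and 37385 with shSerpine2-1 and 41146 and 41197 with shSerpine2-2, against 42282 and 42596 with shSlpi-1 and 55663 and 51142 with shSlpi-2, a log2 difference of -0.28 (SE 0.04, limma adjusted p = 0.000257). Fdps, an enzyme of isoprenoid synthesis, had 579 and 622 with shSerpine2-1 and 666 and 665 with shSerpine2-2, against 689.5 and 757 with shSlpi-1 and 853 and 871 with shSlpi-2, a log2 difference of -0.32 (SE 0.05, limma adjusted p = 0.0016). These 2 held without each line, and without shSlpi-2 the list had 3 lower and 4 higher. Of 26 endoplasmic reticulum chaperone and unfolded protein response genes, 1 was higher and 5 lower, and none held without each line. Without shSlpi-2 8 of these were higher and 2 lower.

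Of 58 cell cycle genes, 8 were higher and 3 lower, with a median of 0.05. E2f8, a repressing E2F factor, had 8942 and 9025 with shSerpine2-1 and 8153 and 8247 with shSerpine2-2, against 7696 and 7519.6 with shSlpi-1 and 5852 and 6268 with shSlpi-2, a log2 difference of 0.34 (SE 0.03, limma adjusted p = 4.51e-05). Kif20a, a kinesin of cytokinesis, had 1790.0 and 1790.2 with shSerpine2-1 and 1632 and 1620.4 with shSerpine2-2, against 1490.0 and 1463 with shSlpi-1 and 1378 and 1260.3 with shSlpi-2, a log2 difference of 0.29 (SE 0.04, limma adjusted p = 0.000696). Birc5 (survivin) went the other way, with 2561 and 2827 with shSerpine2-1 and 2844 and 3027 with shSerpine2-2, against 3382 and 3247 with shSlpi-1 and 3756 and 3931 with shSlpi-2, a log2 difference of -0.34 (SE 0.04, limma adjusted p = 0.0002). These 3 held without each line, and with quantile normalization the list had 4 higher and 4 lower. Of 23 p53 target genes, 1 was higher and 1 lower. Of 37 hypoxia and glycolysis genes, 6 were higher and 2 lower (4 and 9 without shSlpi-2), and Hif1a and Ldha (lactate dehydrogenase A, 0.19 (limma adjusted p = 0.00247)) held without each line.

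Genes of the translation and respiration machinery were lower in large numbers but with small differences. Of 80 cytosolic ribosomal protein genes, 29 were lower and 3 higher, with a median of -0.20. Of 75 nuclear-encoded oxidative phosphorylation genes, 18 were lower and 0 higher, with a median of -0.16. Of 55 replication-dependent histone genes, 6 were lower and 0 higher, with a median of -0.17. Called genes without overlap of libraries were 3 higher and 3 lower among ribosomal protein genes, and 0 in the other 2 lists. Over all genes tested this share was 6.12%. Of these 3 lists, Rps14, a protein of the small ribosomal subunit, was the one gene that held without each line, with 815 and 844 with shSerpine2-1 and 1026 and 1202 with shSerpine2-2, against 1247 and 1101 with shSlpi-1 and 1693 and 1889 with shSlpi-2, a log2 difference of -0.59 (SE 0.06, limma adjusted p = 5.75e-05).

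The 2 larger of these lists depended on shSerpine2-1. Without it, 2 ribosomal protein genes were lower and 0 higher, and 0 oxidative phosphorylation genes were called. Over all genes tested, lower calls also fell, from 805 with all lines to 335 in that fit. For shSerpine2-2 against shSlpi-1 their medians were -0.01 and 0.05, and for shSerpine2-2 against shSlpi-2 they were -0.13 and -0.14. The histone list followed shSlpi-2, with medians of 0.12 and -0.39 for shSerpine2-1 against shSlpi-1 and shSlpi-2 and 0.07 and -0.42 for shSerpine2-2 against the same lines. Near-identical copies and pseudogenes make single histone and ribosomal protein counts uncertain. The same lines stand apart in Rn45s, whose part in these counts was not tested. Of the 6 genes listed as signs of RNA processing and library quality, 0 were higher and 4 lower, with Neat1 at -0.22 and Malat1 at -0.14 besides Lars2 and Rn45s. Malat1 was at 0.60 with quantile normalization, the opposite sign.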

How the data were processed

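Libraries were made from 100 ng of DNase-treated total RNA by NuGEN Ovation amplification, with fragments near 200 bp and 76 bp reads, per the labels' protocols. Bowtie2, HTSeq and DESeq with build mm10 are named in the submitters' processing notes. The sources used here give no versions, annotation or strand setting. The deposited table holds log2 values of 23479 gene entries, with a floor of 6.733366499 in every column. From the values, these are variance-stabilized counts, which no label states. They were inverted to normalized counts, and 100% of these came out as whole reads within 0.01 reads. Amplified reads are not independent molecules.

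Tests used limma 3.58.1 in R 4.3.3 on log2(normalized count + 1) of the 8 libraries, with 1 mean per hairpin line, a mean-variance trend, genes with a mean of at least 10 and two-sided Benjamini-Hochberg adjustment over 12303 genes. The contrast was the mean of both Serpine2 lines minus the mean of both Slpi lines. This scale understates changes of weakly expressed genes. Count models were not used. Libraries A and B were not paired across lines.

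Genes were named by a rule: the targets, the 12 largest differences in each direction among called genes with a mean of at least 50 and no overlap of libraries, and up to 4 called members per list with the smallest p. Outside the rule, 15 list members were named after their values were seen. A gene that the rule selects is not reported here. The members and the 36 lists were chosen with earlier results of these data known. Gene models without a proper name and 27 entries turned into dates by spreadsheet software were tested and not named. Positions are from GENCODE M21. Alternatives changed the pseudocount, filter, scaling, fit and the libraries or lines used. The hairpin and protein sequences were not used here.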

Additional observations from a re-analysis of the deposited data

Results flagged for a closer look

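Among the named genes, 5 had 1 library of an arm far from the other 3, by the gap to the nearest value as a share of the range (Dixon's critical value for 4 libraries is 0.829, and chance gives about 1 such group in 20). Both arms of all 142 named genes and of the 2 targets were checked. At that rate chance alone would give more such groups than the 5 seen, so these 5 are not set apart from chance. Each arm combines 2 hairpin lines, so its libraries are not replicates of 1 line. Nov had a ratio of 0.846 in the Serpine2 libraries, set by library A of shSerpine2-2, and its call was lost without that library. Hlf had 0.834 in the Slpi libraries, set by library A of shSlpi-1. Wwtr1, a partner of the TEAD factors in YAP signalling, had 0.845 in the Serpine2 libraries, and Edn1 had 0.924, both set by library A of shSerpine2-1. Notch4 had 0.843 in the Slpi libraries, set by library A of shSlpi-2, at levels of 8.91 and 6.97 with shSerpine2-1 and 9.66 and 7.66 with shSerpine2-2, against 15.1 and 16.6 with shSlpi-1 and 34.8 and 13.3 with shSlpi-2. The causes were not tested.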

How the results depend on the processing

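Against 1927 genes, eBayes without a trend called 621, and leaving out a line called 783 (without shSerpine2-1) or 3158 (without shSlpi-1). The lines as units gave 0 and the random effect 2. Leaving out 1 library gave 702 (shSerpine2-2 A) to 3462 (shSlpi-2 A). With the lines as units the target differences stayed at -2.51 and 2.70, at an adjusted p of 0.985. Between shSerpine2-1 and shSerpine2-2 there were 625 genes with no filter, 392 without a trend, 3446 with array weights and 191 to 3182 without 1 library. Between shSlpi-1 and shSlpi-2 there were 1549 without a trend and 1152 to 3962 without 1 library. With a replicate block for library letters 1831 genes were called, and deviations of libraries with the same letter correlated between -0.076 and 0.083. Without a filter 763 genes were higher and 1140 lower, with quantile normalization 779 and 772.

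Signs turned without shSlpi-2 for Procr (0.00834), Plgrkt (-0.12), Ctsz (0.0114), Lamb3 (0.17), Fbln2 (0.23), Hist1h4d (0.0273), Jag1 (0.18), Vegfa (-0.0332) and Ddit4 (0.0383), without shSerpine2-1 for Canx (0.0751), without shSerpine2-2 for Itgb3 (-0.23) and Malat1 (0.074), without shSlpi-1 for Neat1 (0.19) and Malat1 (0.28), and with quantile normalization for Malat1 (0.60). Of the 142 named genes other than the targets, 1 to 31 lost their call without a given library. The causes were not tested. Of the same 142 genes, 50 lost their call without a trend, among them Plaur, Gars and Ldha, which held without each line. Without shSerpine2-1 51 lost their call and 1 turned sign, and without shSlpi-2 43 and 9. Without shSerpine2-2 these counts were 37 and 2, and without shSlpi-1 7 and 2. Depth limits genes with few reads, such as Notch4, Serpinb2 and Postn.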
